A study of Mus musculus with 8 samples.

Results

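The genes described here are 40 genes of the mitotic spindle, the kinetochore and cytokinesis, out of 24421 genes in the count tables. They were chosen by name, as known genes of cell division, and no measured value entered the rule, although earlier results of these data were known when they were listed. All 40 had at least 1 unique molecular identifier (UMI, a tag that counts each captured RNA molecule once) in the cells kept. The cells came from islets of 8-week-old male C57BL/6J mice. There were 4 control samples from mice that had no operation and 4 PPTx samples from mice with a 50% partial pancreatectomy of the splenic side 2 days before islet isolation. Each sample held islets from a single mouse or a few mice according to the study's methods, and the PPTx islets could come only from the pancreas that was left. The labels and methods name no transgene and no further agent for these samples.

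Cells were sorted into classes by the hormone with most UMIs among Ins1 plus Ins2, Ppy, Gcg and Sst. Of 1232 cells kept, 958 were insulin-dominant (376 control, 582 PPTx), 137 Ppy-dominant (34 and 103), 121 Gcg-dominant (98 and 23) and 16 Sst-dominant (12 and 4). In 1210 cells the leading hormone had at least 2 times the UMIs of the next. The β-cell markers that played no part in the sorting, among them Ucn3, Slc2a2 and G6pc2, were highest in insulin-dominant cells, Irx2 and Slc7a2 in Gcg-dominant cells, Hhex and Rbp4 in Sst-dominant cells and Tspan8 in Ppy-dominant cells. Mafa, a β-cell factor, had only 2 UMIs in all. Since every cell had to fall into 1 of 4 hormone classes, the insulin-dominant class also held cells of other kinds: 1 cell with 4588 UMIs of Ghrl, the hormone of ε-cells, and 7 of the 9 cells with at least 3 UMIs of immune or endothelial markers. Totals ran from 227439 to 1580152 UMIs a sample, each cell kept had between 2005 and 19459, and 1 barcode occurred in more than 1 sample.

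A cell that divides first copies its DNA in S phase, then condenses its chromosomes, builds a spindle, attaches each chromosome to it through the kinetochore and finally splits at the midzone. Transcripts of most of the 40 genes are known to build up in G2 and M phase and to be destroyed or silenced afterwards, so that they are scarce in resting cells. Adult β-cells divide rarely, and partial pancreatectomy is a classical stimulus of their replication. Many such genes share short promoter elements, the cell cycle genes homology region (CHR) and the CCAAT box, through which they are held silent in resting cells and switched on late in the cycle.

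Promoters of 33 of the 40 genes were taken from the RefSeq promoter table of GRCm38.p6. This is a patch release of the GRCm38 assembly that mm10, the build used for the counts, stands for. Any promoter of the 40 genes on 1 chromosome was left out, while the comparison with all promoters kept that chromosome. Each promoter spans 300 bases, from 250 before to 50 after the start. The letters TTTGAA, the core of the CHR, or their reverse complement TTCAAA stood in 24 of the 33 (72.7%), against 17.9% of all 32851 promoters in the table. CCAAT or its reverse complement ATTGG stood in 27 of the 33 (81.8%), against 37.4% of all. Both were present in 22 of the 33 (66.7%), against 6.95% of all. The sequences below are shown because Top2a, Cdk1 and Ube2c were found almost only in the few cells rich in mitotic transcripts, Cenpm was called higher in insulin-dominant than in other hormone cells and holds no CHR letters, and Racgap1 was also found in many cells without other mitotic transcripts. Capitals mark every match to these letters on either strand.
Top2a: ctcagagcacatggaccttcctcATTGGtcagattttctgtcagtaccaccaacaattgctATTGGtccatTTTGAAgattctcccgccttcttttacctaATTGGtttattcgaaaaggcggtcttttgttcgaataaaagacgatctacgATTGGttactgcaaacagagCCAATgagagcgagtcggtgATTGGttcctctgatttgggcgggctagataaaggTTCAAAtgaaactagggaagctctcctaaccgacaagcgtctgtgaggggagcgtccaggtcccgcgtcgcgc
Cdk1: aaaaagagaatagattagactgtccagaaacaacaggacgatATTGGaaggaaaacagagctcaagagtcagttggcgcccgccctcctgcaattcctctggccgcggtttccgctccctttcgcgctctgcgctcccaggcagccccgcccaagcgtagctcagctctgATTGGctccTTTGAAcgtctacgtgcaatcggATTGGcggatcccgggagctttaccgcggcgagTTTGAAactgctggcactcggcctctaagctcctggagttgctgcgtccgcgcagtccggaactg
Ube2c: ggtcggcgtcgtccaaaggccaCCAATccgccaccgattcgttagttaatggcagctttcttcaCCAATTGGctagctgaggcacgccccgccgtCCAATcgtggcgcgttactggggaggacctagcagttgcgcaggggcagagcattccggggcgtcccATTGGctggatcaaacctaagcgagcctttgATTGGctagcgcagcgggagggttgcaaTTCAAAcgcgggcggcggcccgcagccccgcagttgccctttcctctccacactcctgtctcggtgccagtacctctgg
Cenpm: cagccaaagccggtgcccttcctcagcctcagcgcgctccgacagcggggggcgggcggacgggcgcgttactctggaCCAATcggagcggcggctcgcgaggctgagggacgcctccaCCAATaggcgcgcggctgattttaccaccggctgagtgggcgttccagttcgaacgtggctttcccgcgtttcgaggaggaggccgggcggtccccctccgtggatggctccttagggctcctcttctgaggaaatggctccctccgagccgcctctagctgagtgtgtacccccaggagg
Racgap1: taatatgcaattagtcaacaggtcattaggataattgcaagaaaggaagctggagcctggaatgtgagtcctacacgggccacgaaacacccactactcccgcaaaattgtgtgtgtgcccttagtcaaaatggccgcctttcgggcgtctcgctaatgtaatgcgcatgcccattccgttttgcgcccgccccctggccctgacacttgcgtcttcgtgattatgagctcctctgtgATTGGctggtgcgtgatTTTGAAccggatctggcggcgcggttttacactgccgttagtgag
Top2a (chr11:99024140-99024439, minus strand) held 2 matches to the CHR letters and 6 to the CCAAT letters. Cdk1 (chr10:69352863-69353162, minus strand) held 2 and 3. Ube2c (chr2:164769679-164769978, plus strand) held 1 and 6, where a CCAAT and an ATTGG overlapped once. Cenpm (chr15:82244287-82244586, minus strand) held 0 and 2, and Racgap1 (chr15:99651607-99651906, minus strand) held 1 and 1. A match is a description of the sequence and not of a bound site. Of the genes with over 80% of their UMIs in mitotic-rich cells, defined below, 20 of 27 held the CHR letters, as did 4 of the other 6.

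The first question was which islet cells held these transcripts. The 40 genes had 1367 UMIs in all, and 1118 of them (81.8%) lay in 60 cells, 4.87% of the cells kept. These cells are called mitotic-rich here and had at least 3 UMIs of the 40 genes from at least 2 of them. Of the 60 cells, 54 were insulin-dominant, 3 Ppy-dominant, 3 Gcg-dominant and 0 Sst-dominant. As a share of each class this was 5.64% of insulin-dominant cells (exact Clopper-Pearson 95% interval 4.26 to 7.29%), 2.19% of Ppy-dominant cells (0.454 to 6.27%), 2.48% of Gcg-dominant cells (0.514 to 7.07%) and 0 of 16 Sst-dominant cells (0 to 20.6%), where a limit of 3 counts allows a share of up to 18.8%. The intervals overlapped, and they cover counting error only. The classes also differed in depth, with a median of 6062 UMIs in insulin-dominant, 5188 in Ppy-dominant, 4004 in Gcg-dominant and 2864.5 in Sst-dominant cells. When each cell was thinned to 2000 UMIs, the expected shares were 3.65%, 0.872%, 1.72% and 0%.

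The threshold itself fell in the tail of a steep distribution. Among insulin-dominant cells, 734 had no UMI of the 40 genes, 140 had 1 and 30 had 2, and all of these stayed outside. Just inside lay 8 insulin-dominant cells with 3 or 4 UMIs, all of them PPTx. The richest cell, an insulin-dominant cell of PPTx replicate 2, had 96 UMIs from 28 of the 40 genes.

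Summed over whole classes, the 40 genes came to 189 counts per 1000000 UMIs (CPM) in insulin-dominant cells (1209 UMIs), 123 CPM in Gcg-dominant cells (64 UMIs), 121 CPM in Ppy-dominant cells (92 UMIs) and 40.6 CPM in Sst-dominant cells (2 UMIs). The levels of Gcg-dominant and Ppy-dominant cells did not differ beyond counting error, with 95% Poisson intervals of 94.5 to 157 and 97.2 to 148 CPM, and that of insulin-dominant cells was 178 to 199 CPM. Over samples the spread was wider than these intervals. Ppy-dominant cells held 154, 928, 68.6 and 42.8 CPM in control replicates 1 to 4 and 29.8, 40.2, 64.3 and 51.3 CPM in PPTx replicates 1 to 4. Gcg-dominant cells held 0, 24.9, 139 and 40.1 CPM in control and 0, 451, 42.6 and 0 CPM in PPTx. The sums of each of these classes thus overlapped those of insulin-dominant cells, which ran from 108 to 253 CPM. Outside the mitotic-rich cells, 904 insulin-dominant cells held 33.4 CPM (28.9 to 38.3) and 268 cells of the other hormones 37.6 CPM (27.8 to 49.7). Cells with a UMI were 18.8% and 15.3% of these. Taking out cells by their UMIs of the 40 genes caps what is left, and the classes differed in depth. The likeness of these levels is thus partly set by the definition, and no conclusion is drawn from it. No islet cell type that surely lacks the 40 genes was at hand as a background, so that a lone UMI in a cell is not read as division.

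**Figure D1:**
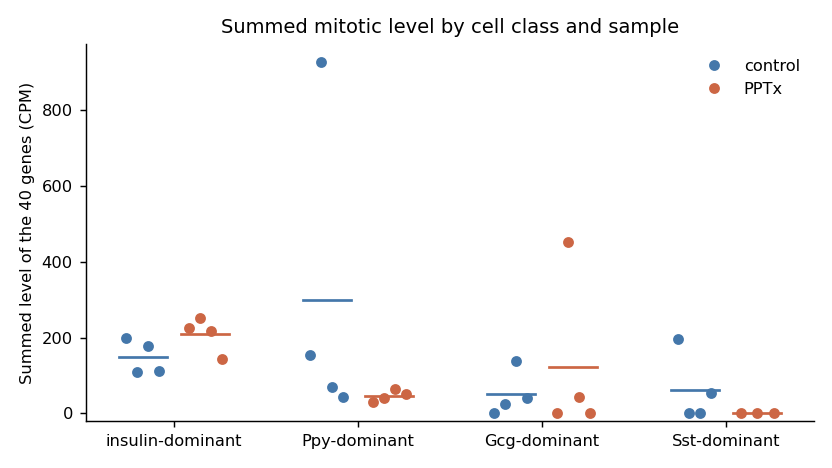
Summed level of the 40 genes in CPM (linear axis) for each hormone class, with 1 point a sample and a line at the mean of each group, control in blue and PPTx in orange. The 8 insulin-dominant sums lie between 108 and 253 CPM. Within this range lie 1 Ppy-dominant (154 CPM), 1 Gcg-dominant (139 CPM) and 1 Sst-dominant sum (196 CPM, from 1 UMI). Above it lie 1 Ppy-dominant (928 CPM) and 1 Gcg-dominant sum (451 CPM), and the others lie under it. Only 3 PPTx samples had Sst-dominant cells.

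Within samples, the summed level was higher in insulin-dominant than in the other hormone cells in 7 of 8 samples. The differences were 125, 54.9 and 70.1 CPM in control replicates 1, 3 and 4 and 199.9, 137, 161 and 97.6 CPM in PPTx replicates 1 to 4. In control replicate 2 the difference was -425 CPM, and 58 of the 60 UMIs of its other hormone cells lay in 1 Ppy-dominant cell. Tested gene by gene with the sample as a block (edgeR's quasi-likelihood test with Benjamini-Hochberg adjustment over 11187 genes), 2 of the 36 genes that passed the minimum of 10 UMIs were called, and both were higher in insulin-dominant cells, where 18.0% of all tested genes were called and 10.2% were called higher. They were Pbk, a kinase of mitotic cells (log2 fold change 1.84, adjusted p = 0.0245), and Cenpm, a subunit of the inner kinetochore (2.08, adjusted p = 0.0372). The median log2 fold change of the 36 genes was 1.09, against 0.05 over all tested genes, and became 0.51 with DESeq2 and 1.73 without control replicate 2. Only Smc4 had 10 UMIs in the other hormone cells, so the other genes needed insulin-dominant cells to reach the minimum. Pbk had 89 UMIs in insulin-dominant and 6 in other hormone cells, and Cenpm 58 and 3. The filter thus partly set the direction of the calls and of the median, and no conclusion is drawn from it. Both calls were lost in DESeq2 (adjusted p = 0.0588 for Pbk and 0.156 for Cenpm), and also in edgeR when control replicate 4 or PPTx replicate 1, 2 or 3 was left out, while without control replicate 2 edgeR called 7 genes.

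The mitotic-rich cells of other hormones were looked at singly. The Ppy-dominant cell of control replicate 2 had 2152 Ppy UMIs and 21 insulin UMIs among 5616, and 58 UMIs from 26 of the 40 genes, led by Pbk (5), Ube2c (5), Top2a (4), Smc4 (4) and Cenpf (4). A Gcg-dominant cell of control replicate 3 had 1319 Gcg UMIs and 21 insulin UMIs among 3445, and 25 UMIs from 20 genes, none above 2 UMIs. A Gcg-dominant cell of PPTx replicate 2 had 705 Gcg UMIs and 70 insulin UMIs among 2260, and 15 UMIs from 7 genes, led by Smc4 (5), Top2a (3) and Nusap1 (3). In these 3 cells the next hormone made up 0.966%, 1.55% and 8.96% of the hormone UMIs. The other 3 had 3 to 5 UMIs: a Gcg-dominant cell of PPTx replicate 2 with Smc4 (3), Spc24 (1) and Cks2 (1), a Ppy-dominant cell of the same sample with 1 UMI each of Smc4, Spc24 and Prc1, and a Ppy-dominant cell of PPTx replicate 3 with Kif20a (2) and Racgap1 (1). Transcripts of 20 or more of the 40 genes were thus seen in 1 Ppy-dominant and 1 Gcg-dominant cell, both of control, while the fullest such PPTx cell, a Gcg-dominant one, had 7 of them. Without the 2 richest of them the level of the Ppy-dominant class was 44.9 CPM and that of the Gcg-dominant class 75.3 CPM.

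One insulin-dominant mitotic-rich cell went against its class. This cell of PPTx replicate 2 had 77 insulin UMIs among 3038, or 2.53%, and 120 UMIs of immune markers, beside 6 UMIs of the 40 genes. No other mitotic-rich cell had an immune UMI, since all 120 found in mitotic-rich cells came from it. Endothelial markers had 4 UMIs in the 60 cells, acinar markers 11, ductal markers 25 and stellate markers 0. A second hormone above 20% of hormone UMIs was seen in 47 cells, and 1 of them was mitotic-rich, a cell of PPTx replicate 2 with 3511 insulin and 1602 Gcg UMIs and 37 UMIs of the 40 genes. The median depth of mitotic-rich cells exceeded that of the other insulin-dominant cells in 6 of 8 samples, by a mean log2 difference of 0.06 ± 0.42 (SD, n = 8, exact sign-flip p = 0.672, two-sided).

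The genes that act on chromosome structure had most UMIs. Smc4, a condensin subunit, led with 150 UMIs in 102 cells, and Smc2, its partner, had 36. Top2a, the topoisomerase that untangles sister DNA, had 89, and Mki67, which coats mitotic chromosomes and is the usual marker of cycling cells, had 30. They differed in how far they kept to mitotic-rich cells. Top2a had 95.5% of its UMIs there and Mki67 96.7%, whereas Smc4 had 54.7% and Smc2 69.4%. Smc4 was the lone gene of the 40 in 54 cells. It also made up 37 of the 158 UMIs of other hormone cells, and was at a log2 fold change of -0.37 between insulin-dominant and other hormone cells (adjusted p = 0.495, edgeR).

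Among kinetochore genes, Spc24, an arm of the Ndc80 complex that holds microtubules, had 68 UMIs, Cenpm 61, Cenpa, the histone variant of centromeres, 39, and Cenpf 23. Cenpe, the kinetochore motor, had 11 UMIs, all in mitotic-rich cells. The other parts of the Ndc80 complex were scarce, with 17 UMIs for Ndc80 and 2 for Nuf2, both of the latter in 1 cell. Spc25, the fourth subunit and not 1 of the 40 genes, had 1798 UMIs, was detected in 65.1% of insulin-dominant and 17.5% of other hormone cells, and had 19.3% of its UMIs in mitotic-rich cells. Its gene lies 4859 bases from G6pc2, which is abundant in β-cells, at 1995 CPM in insulin-dominant cells. The part of its neighbour in the counts of Spc25 was not tested. Of the spindle checkpoint genes, Mad2l1 had 44 UMIs with 61.4% in mitotic-rich cells, and the kinases Bub1b, Ttk and Bub1 had 11, 8 and 4.

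The kinases and cyclins that start mitosis were the group most confined to mitotic-rich cells, with 93.7% of 239 UMIs. Pbk had 95 UMIs with 97.9% in those cells, and Cdk1, the kinase that drives entry into mitosis, 69 with 91.3%. Its partners Ccnb2 and Ccnb1 had 19 and 14, the adaptor Cks2 20, and the kinases Plk1 and Aurka 13 and 9. Genes of mitotic exit were alike, at 93.4% of 137 UMIs. Ube2c, the enzyme that passes ubiquitin to cyclin B through the anaphase-promoting complex, had 65 UMIs, Cdca3 45 and Cdc20, an activator of that complex, 27. In the chromosomal passenger complex, Birc5 (survivin) had 42 UMIs, all in mitotic-rich cells, while Incenp, its scaffold, had 34 with 41.2% there. Cdca8 and the kinase Aurkb had 26 and 11.

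Spindle and cytokinesis genes were mixed in the same way. Nusap1 had 32 UMIs with 96.9% in mitotic-rich cells, and Tpx2, Hmmr and the motor Kif11 had 19, 18 and 17 with 94.7%, 94.4% and 82.4%. Kif22, a chromosome-arm motor, had 19 UMIs with 31.6% there, the lowest share of all 40. Racgap1, a subunit of centralspindlin at the midzone, had 77 UMIs with 58.4% there, whereas Kif23, the other subunit, had 14 UMIs, all of them there. Prc1 had 32 UMIs, Ect2 27, Anln 20 and Kif20a 10. In the other hormone cells 35 of the 40 genes had a UMI, and 20 had at least 3. Smc4 had 14 UMIs in Ppy-, 21 in Gcg- and 2 in Sst-dominant cells and was the lone one of the 40 genes seen in Sst-dominant cells. Racgap1 had 7 in Ppy- and 1 in Gcg-dominant cells, Top2a 4 and 4, Ube2c 6 and 1, Mad2l1 4 and 3 and Nusap1 2 and 5. Pbk had 5 and 1, Spc24 4 and 2, Cdca3 4 and 2, Cenpf 5 and 1, and Cdk1 2 and 3. Incenp had 4 and 1, Ect2 3 and 2, Prc1 3 and 1, Kif20a 3 and 1, and Cenpm, Smc2, Cdca8, Hmmr and Ndc80 had 3 in both together. Mki67 had 0 in Ppy- and 1 in Gcg-dominant cells, against 29 in insulin-dominant cells. Ccnb1, Kif23, Aurka, Bub1 and Nuf2 were seen in insulin-dominant cells alone, on 2 to 14 UMIs.

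To keep a gene's own UMIs out of the choice of cells, its UMIs were also counted in cells with at least 2 UMIs of the other 39 genes. This share had a median of 91.1% over the 40 genes and was lowest for Kif22 at 31.6%.

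**Figure D2:**
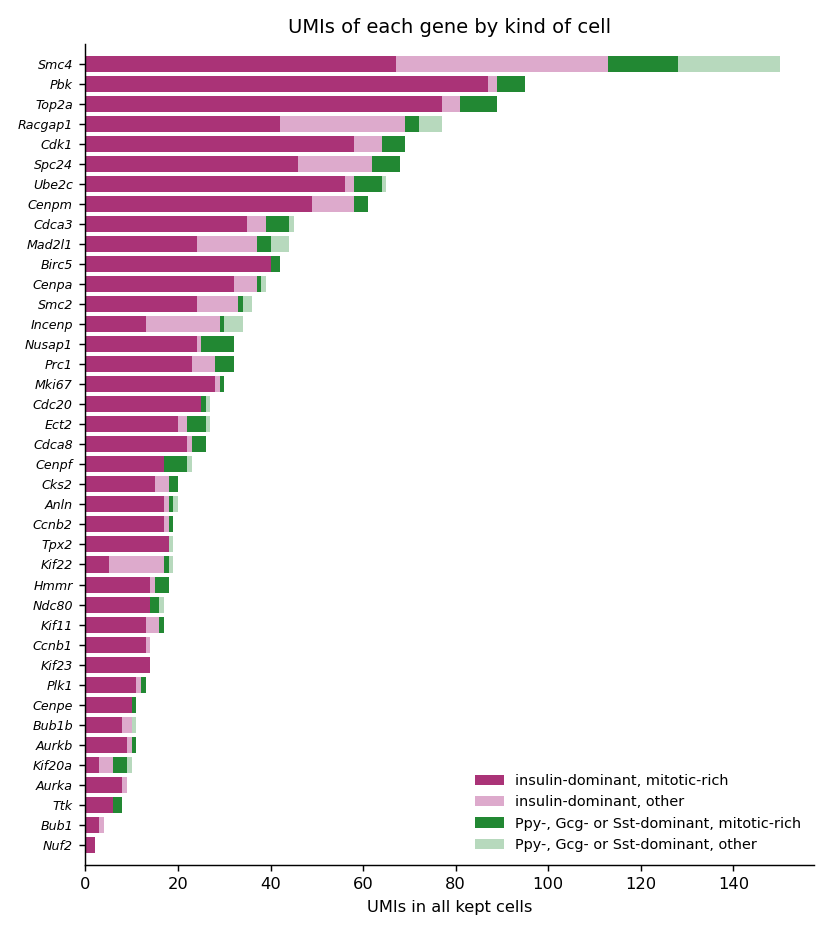
UMIs of each of the 40 genes in all cells kept (linear axis), stacked by kind of cell. Most bars are dark, as 81.8% of all UMIs lay in mitotic-rich cells, while Smc4, Racgap1, Mad2l1, Incenp and Kif22 have long pale parts from cells with few mitotic UMIs.

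The next question was whether PPTx changed these genes. In insulin-dominant cells the summed level was 199, 108, 178 and 113 CPM in control replicates 1 to 4 and 226, 253, 218 and 144 CPM in PPTx replicates 1 to 4. The means were 149 ± 46.1 and 210 ± 46.5 CPM (SD, n = 4 each). PPTx replicate 4 lay below control replicates 1 and 3, so the groups overlapped. Single cells weighed on these sums. The richest cell held 32 of 40, 43 of 51, 75 of 226 and 29 of 98 UMIs in control replicates 1 to 4. In PPTx replicates 1 to 4 it held 41 of 179, 96 of 324, 65 of 212 and 12 of 79. That of control replicate 1 had 2062 UMIs in all. The mean over single cells, which gives a shallow cell the same weight as a deep one, was 1.78 ± 0.957 in control and 1.99 ± 0.361 UMIs per 10000 in PPTx.

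Gene by gene, none of the 35 genes with at least 10 UMIs in these cells was called by edgeR's quasi-likelihood test (lowest adjusted p = 0.539), where 0.159% of 10704 tested genes were. DESeq2 also called 0 of the 35. At an unadjusted p under 0.05 edgeR had 3 of the 35, Cenpm, Spc24 and Hmmr, while 8.62% of all tested genes were at that level, and DESeq2 had 0. The fitted log2 fold change was above 0 for 26 of the 35, with a median of 0.50 against 0.01 over all tested genes. Leaving out 1 sample moved this median to between 0.28 (without PPTx replicate 2) and 0.77 (without control replicate 3). The remaining 5 genes, Kif20a, Aurka, Ttk, Bub1 and Nuf2, had 2 to 9 UMIs in these cells and were not tested. In all cells together, 0 of 36 genes were called by edgeR, where 0.331% of 11187 genes were, and 0 were called by DESeq2. At an unadjusted p under 0.05 there were 0 of the 36 by either tool, against 9.07% of all tested genes by edgeR. The median log2 fold change of the 36 was 0.36, and 0.15 without control replicate 4.

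Cenpm stood at 0, 6.35, 6.29 and 4.59 CPM in control replicates 1 to 4 and at 16.4, 7.02, 13.3 and 14.6 CPM in PPTx replicates 1 to 4. Every PPTx sample lay above every control sample, on 15 and 43 UMIs, and its log2 fold change was 1.07 ± 0.48 (SE, adjusted p = 0.539, edgeR). Smc2 stood at 4.99, 2.12, 3.15 and 3.45 CPM in control and at 8.83, 6.24, 6.16 and 5.47 CPM in PPTx. It too did not overlap, on 9 and 24 UMIs, with a log2 fold change of 0.88 ± 0.51 (SE, adjusted p = 0.653, edgeR). These were 2 of the 35 genes, where 4.01% of all tested genes had every PPTx sample above every control sample, and 0 of the 40 lay lower without overlap, where 1.03% of all did.

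Spc24 stood at 4.99, 2.12, 9.44 and 3.45 CPM in control and at 18.9, 11.7, 10.3 and 9.11 CPM in PPTx. Control replicate 3 lay just above PPTx replicate 4, and the log2 fold change was 0.94 ± 0.44 (SE, adjusted p = 0.571, edgeR). Hmmr, which guides spindle assembly, had 1, 0, 1 and 0 UMIs in control and 2, 7, 2 and 2 in PPTx. On so few UMIs the fitted log2 fold change of 1.95 ± 0.92 (SE, adjusted p = 0.571, edgeR) is coarse. Cenpe had the highest fitted log2 fold change of the 35 (2.24 ± 1.17 SE, adjusted p = 0.613, edgeR), on 0, 0, 0 and 1 UMIs in control and 0, 4, 3 and 2 in PPTx, and its groups overlapped. Pbk stood at 4.99, 10.6, 14.2 and 6.89 CPM in control and at 22.7, 14.8, 18.5 and 7.29 CPM in PPTx, with PPTx replicate 4 among the controls.

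The other abundant genes did not separate the groups. Smc4 was at 24.9, 6.35, 16.5 and 13.8 CPM in control and at 22.7, 17.9, 14.4 and 31.0 CPM in PPTx, where the groups interleaved. Top2a was at 24.9, 10.6, 11.8 and 2.30 CPM in control and at 16.4, 19.5, 15.4 and 1.82 CPM in PPTx, with the lowest sample of both groups being replicate 4. Cdk1 was at 24.9, 4.24, 12.6 and 5.74 CPM in control and at 10.1, 7.79, 13.3 and 9.11 CPM in PPTx. Its highest value, in control replicate 1, came from 5 UMIs in the smallest insulin-dominant sum. Ube2c was likewise highest in control replicate 1, at 34.9 CPM from 7 UMIs, beside 2.12, 10.2 and 5.74 CPM in the other controls and 10.1, 13.3, 5.13 and 3.65 CPM in PPTx. Racgap1 was at 4.99, 10.6, 11 and 5.74 CPM in control and at 5.05, 14.0, 14.4 and 14.6 CPM in PPTx. Cdca3 was at 0, 6.35, 6.29 and 5.74 CPM in control and at 5.05, 7.79, 7.19 and 3.65 CPM in PPTx, and Mad2l1 was at 9.97, 2.12, 4.72 and 3.45 CPM in control and at 8.83, 7.02, 8.21 and 1.82 CPM in PPTx. The groups overlapped for each of these genes. Their log2 fold changes were 0.38 ± 0.35 for Smc4, 0.50 ± 0.38 for Pbk, 0.31 ± 0.40 for Racgap1 and 0.51 ± 0.52 for Mad2l1 (SE, edgeR). Those of Top2a (0.39 ± 0.47), Cdk1 (-0.13 ± 0.43), Ube2c (-0.29 ± 0.51) and Cdca3 (0.0084 ± 0.50) changed sign when some 1 sample was left out. No adjusted p of these 8 genes was below 0.761. Mki67 had 2, 0, 2 and 2 UMIs in control and 4, 17, 2 and 0 in PPTx, and most of its PPTx UMIs lay in replicate 2.

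The scarcer genes showed how thin the counts of single samples were. Birc5 had 0, 0, 12 and 1 UMIs in control replicates 1 to 4 and 11, 6, 6 and 4 in PPTx replicates 1 to 4, or 0, 0, 9.44 and 1.15 CPM against 13.9, 4.68, 6.16 and 7.29 CPM, so that control replicate 3 lay among the PPTx samples. Cenpa had 1, 2, 5 and 5 UMIs in control and 4, 14, 5 and 1 in PPTx, where PPTx replicate 2, the largest of the insulin-dominant sums, had most. Incenp had 0, 0, 5 and 3 in control and 4, 11, 5 and 1 in PPTx. Prc1, which bundles midzone microtubules, had 2, 2, 2 and 4 in control and 4, 7, 6 and 1 in PPTx, and Ect2, which activates RhoA for furrowing, had 0, 0, 5 and 1 in control and 2, 8, 6 and 0 in PPTx. These counts overlapped between the groups. Nusap1, which binds spindle microtubules near chromosomes, had 1, 3, 8 and 0 in control and 3, 6, 3 and 1 in PPTx. Cenpf had 0, 3, 1 and 6 in control and 0, 4, 0 and 3 in PPTx, and Ndc80 had 0, 1, 0 and 2 in control and 4, 5, 2 and 0 in PPTx. Cdca8 had 0, 1, 7 and 2 in control and 3, 5, 4 and 1 in PPTx, and Kif20a had 1, 0, 1 and 1 in control and 0, 1, 2 and 0 in PPTx. No pattern by group was common to these genes, and each had a sample at 0 or 1 UMI.

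**Figure D3:**
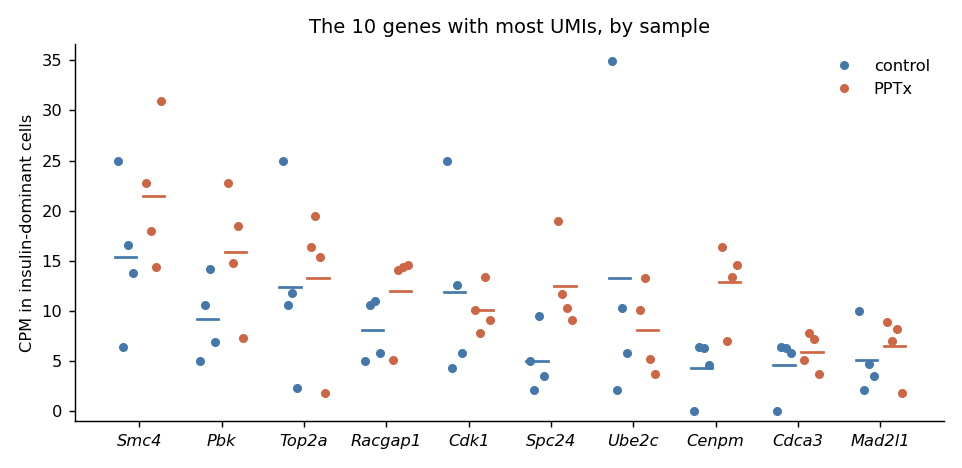
CPM of the 10 genes with most UMIs in insulin-dominant cells, with 1 point a sample and a line at the mean of each group (control blue, PPTx orange, linear axis). Of these genes only Cenpm has every PPTx point above every control point.

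Counting cells gave another view of the same UMIs. Mitotic-rich cells were 1 of 55, 1 of 78, 5 of 123 and 4 of 120 insulin-dominant cells in control replicates 1 to 4, or 1.82, 1.28, 4.07 and 3.33%. In PPTx they were 9 of 102, 17 of 239, 10 of 104 and 7 of 137, or 8.82, 7.11, 9.62 and 5.11%. Every PPTx sample lay above every control sample, at means of 7.67 ± 2.00 and 2.62 ± 1.29% (SD, n = 4 each). No test was made, since the genes were chosen with results of these data known. The depths of the groups overlapped, with a median of 3494 to 10378 UMIs per insulin-dominant cell in the control samples and 3660 to 9583.5 in PPTx. Thinned to 2000 UMIs a cell, the expected shares were 2.19 ± 0.809 and 4.41 ± 0.695%, again without overlap. Immune markers also ran higher in PPTx samples, at 0.869 to 356 CPM against 0 to 34.8 CPM in control, and so did stellate markers, at 2.61 to 230 against 0 to 76.7 CPM, acinar markers, at 9.55 to 117 against 1.71 to 13.2 CPM, and ductal markers, at 19.6 to 151 against 8.86 to 80.4 CPM, with overlap between the groups for each. Endothelial markers were at 4.34 to 16.9 CPM in PPTx and 4.43 to 17.6 CPM in control. The part of these markers' cells in the share was tested only for immune and endothelial markers. Leaving out the cells with at least 3 immune or endothelial UMIs moved the share of PPTx replicate 2 to 6.75%, still above every control.

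How far the groups lay apart depended on the number of UMIs required. At a minimum of 1 UMI, 17.5 ± 6.32% of control and 26.8 ± 3.74% of PPTx cells were counted (SD, n = 4 each), and at 2 UMIs 5.46 ± 2.77 and 10.5 ± 2.23%, with overlap at both. At 5 UMIs the values were 2.62 ± 1.29 and 6.17 ± 2.74%, and the lowest PPTx sample, at 2.92%, lay within the controls. At 10 UMIs they were 2.21 ± 0.853 and 4.19 ± 2.05%. At 20 UMIs or more there were 8 cells in each group, or 2.00 ± 0.862% of control and 1.67 ± 1.69% of PPTx cells. Of these 6 minimums the groups were apart at 3 UMIs alone. With depth taken into account, at no less than 6 UMIs of the 40 genes per 10000, 10 control and 39 PPTx cells were counted, or 2.42 ± 1.03 and 6.77 ± 0.760%, without overlap. These last 3 limits (10 UMIs, 20 UMIs and 6 per 10000) were added after seeing the data. The mitotic-rich cells of control had a median of 29 UMIs of the 40 genes (range 6 to 75, 11 cells) and those of PPTx a median of 11 (range 3 to 96, 43 cells). By sample the medians were 32, 43, 30 and 18.5 in control and 11, 7, 12 and 7 in PPTx, without overlap, although control replicates 1 and 2 had 1 such cell each.

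**Figure D4:**
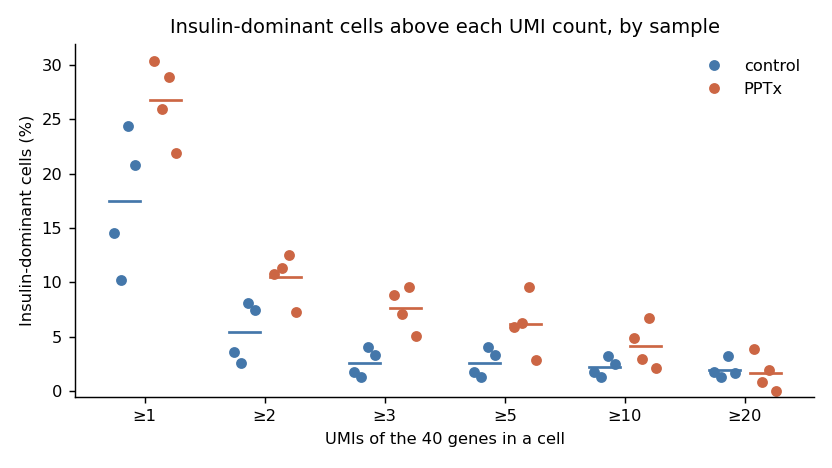
Share of insulin-dominant cells (%, linear axis) with at least 1, 2, 3, 5, 10 or 20 UMIs of the 40 genes, with 1 point a sample and a line at the mean of each group (control blue, PPTx orange). The groups separate at 3 UMIs and overlap at the other minimums, with 8 cells in each at 20 UMIs.

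S phase transcripts were then set beside the mitotic ones in the same cells. A list of 33 S phase genes (MCM helicase subunits, polymerase and nucleotide enzymes) had a median of 15.5 UMIs in mitotic-rich and 1 UMI in other insulin-dominant cells. The medians of mitotic-rich cells were alike in control (15, range 0 to 51) and PPTx (16, range 1 to 51). Among mitotic-rich insulin-dominant cells, S phase UMIs outnumbered those of the 40 mitotic genes in 2 of 11 control cells and in 24 of 43 PPTx cells, with no cell equal. As a share of all insulin-dominant cells, such S phase-led cells were 0, 0, 0.813 and 0.833% in control replicates 1 to 4 and 4.90, 3.77, 5.77 and 2.92% in PPTx, and did not overlap. Cells led by the mitotic genes were 1.82, 1.28, 3.25 and 2.5% in control and 3.92, 3.35, 3.85 and 2.19% in PPTx, and overlapped. The ratio of mitotic to S phase UMIs summed over mitotic-rich cells was 1.86 in control (343 and 184 UMIs) and 0.904 in PPTx (666 and 737 UMIs). In samples it was 2.39, 1.48 and 2.12 in control replicates 2 to 4, while the 1 cell of control replicate 1 had no S phase UMI, and 0.799, 1.20, 0.738 and 0.855 in PPTx. This split was chosen after the values were seen and was not tested.

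**Figure D5:**
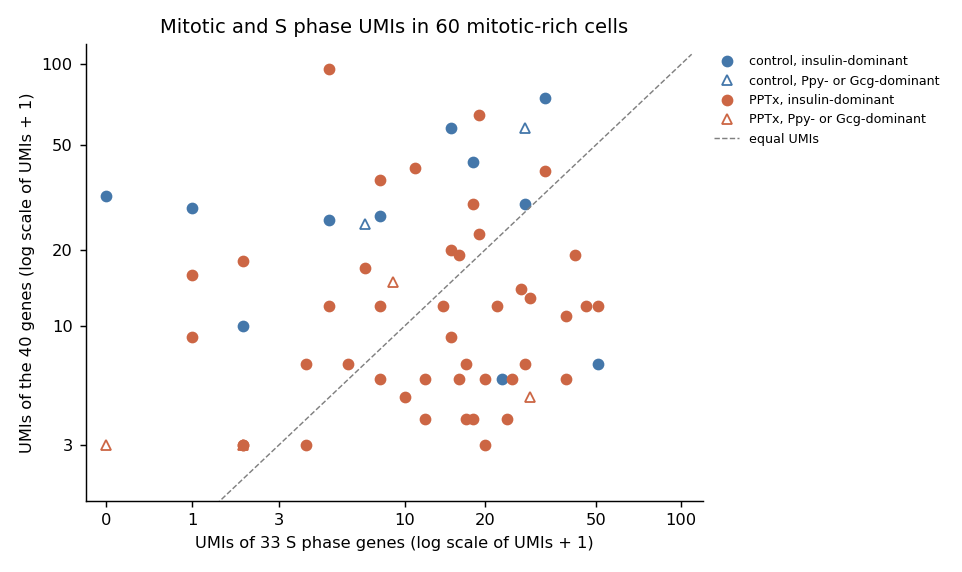
UMIs of the 40 mitotic genes against UMIs of 33 S phase genes in the 60 mitotic-rich cells, both on a log scale of UMIs + 1, with circles for insulin-dominant and triangles for Ppy- or Gcg-dominant cells (control blue, PPTx orange) and a dashed line of equal UMIs. Of the insulin-dominant cells, 24 of 43 PPTx cells and 2 of 11 control cells lie below the line.

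Lists of other genes of the cell cycle were read in the fit of whole insulin-dominant sums, where the median over all tested genes was 0.01. Of 30 S phase genes tested in insulin-dominant cells, 29 had a log2 fold change above 0 in PPTx, with a median of 1.52, and 1 was called, Mcm6, a subunit of the replicative helicase (2.19 ± 0.37 SE, adjusted p = 0.0185, edgeR). Of 47 tested genes from a list of 80 other mitotic genes, 41 were above 0 with a median of 0.49, close to the 0.50 of the 40 genes, and 1 was called, Cks1b, a partner of cyclin-dependent kinases (1.39 ± 0.28 SE, adjusted p = 0.0387, edgeR). The call of Mcm6 was lost without control replicate 1, 2 or 4 or PPTx replicate 1 (adjusted p = 0.05004 to 0.122), and that of Cks1b without control replicate 1, 2 or 4 or PPTx replicate 1 or 2 (0.127 to 0.215) and with all deposited cells (0.0670). Of 10 tested histone, tubulin and chromatin genes of dividing cells 9 were above 0 with a median of 0.60, and 1 was called, the β-tubulin Tubb5 (0.94 ± 0.20 SE, adjusted p = 0.0454, edgeR). Its call was lost without any 1 sample other than PPTx replicates 3 and 4. It was also lost in edgeR with all deposited cells (0.73, adjusted p = 0.346) and with the replicate block (0.88, adjusted p = 0.0654).

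Among the other hormone cells, PPTx and control could hardly be compared. In control they were mostly Gcg-dominant (98, beside 34 Ppy-dominant) and in PPTx mostly Ppy-dominant (103, beside 23 Gcg-dominant). A PPTx contrast in these cells, and the interaction test below, thus also compare different cell types. The summed level of the other hormone cells was 74.5, 533, 123 and 42.5 CPM in control replicates 1 to 4 and 26.0, 115, 56.3 and 46.4 CPM in PPTx. Only 1 of the 40 genes, Smc4, had the 10 UMIs needed for the fit. It was not called (log2 fold change -0.19, edgeR adjusted p = 0.975), where 0.183% of 8215 genes were. Its fold change was 0.19 without PPTx replicate 1 and -0.76 without PPTx replicate 2, and 0.32 without the 2 richest cells of these hormones, so that it has no stable sign. DESeq2 did not call it, and its unadjusted p was above 0.05 with both, where edgeR had 6.6% of all tested genes under that level. A difference of the PPTx effect between insulin-dominant and other hormone cells was called for 0 of 36 genes by the interaction test of edgeR (lowest adjusted p = 0.823, with 4 genes at an unadjusted p under 0.05 against 5.14% of all), where 0.0268% of 11187 genes were called, and DESeq2 called 0 and had 0 at an unadjusted p under 0.05. A p that misses the threshold does not show equal effects. The median of these 36 differences was 1.68, and became 0.14 without control replicate 2 and 3.16 without PPTx replicate 2. It turned to -0.63 without the 2 richest cells of the other hormones, which were picked for their UMIs of the 40 genes after seeing the data.

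Last, mitotic-rich cells were compared with the remaining insulin-dominant cells of the same samples. Since the 40 genes chose the cells, only other genes are read. With the sample as a block, edgeR called 350 of 10704 genes (3.27%), of which 34 are among the 40 and are not read, and 316 among the 10669 tested genes outside the 40 (2.96%). Called higher were 222 of the latter, or 2.08%. The balance of directions turned with the scaling, with 222 of these genes higher and 94 lower here and 193 higher and 589 lower with TMM factors from all tested genes, where the median of all genes was -0.55 in place of -0.24. Of the 80 other mitotic genes, Spc25 among them, 47 were tested and 30 rose. Spc25 was 1 of the 30 (log2 fold change 1.33). The 30 included Ccna2, the cyclin of S and G2 phase (log2 fold change 6.46, 35 UMIs in mitotic-rich and 3 in other cells). Cenpi, a kinetochore subunit, Melk, a mitotic kinase, and Fam64a had 12, 11 and 13 UMIs in mitotic-rich cells and 0 in others. No fold is given for Cenpi, Melk and Fam64a, since a fold fitted against 0 UMIs depends on the prior count of the fit. They reached the minimum of 10 UMIs through mitotic-rich cells alone, so the filter fixed their direction. Further genes of the 30 had under 10 UMIs in the other cells and also needed mitotic-rich cells to reach the minimum. They were Ccna2, Cenph, Cenpp, Cenpq, Sgol1, Ccnf, Ncaph, Foxm1, Ckap2, Ckap2l, Gtse1, Oip5, Ska1, Cdca2 and Dlgap5. How many of the 47 rose is thus partly set by the filter. Of 30 S phase genes tested 27 rose, among them Tk1 (4.76), Rfc4 (4.05) and Mcm3 (4.01). Tk1, with 11 UMIs in mitotic-rich and 3 in other cells, needed the former to reach the minimum. So did Gins1, Uhrf1, Hells and Dscc1, with 7, 3, 9 and 8 UMIs in other cells.

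Among abundant genes outside the 40, those that rose most were Tcf19 (log2 fold change 4.59 ± 0.36 SE, edgeR adjusted p = 3.1e-34), Zfp367 (3.70 ± 0.32), Rrm1, the large subunit of ribonucleotide reductase (3.33 ± 0.35), Pcna, the clamp of DNA polymerase (3.24 ± 0.30), and H2afx, a histone variant that marks DNA breaks (3.0 ± 0.30). Tcf19 had 69 UMIs in 31 of 54 mitotic-rich cells and 30 UMIs in 24 of 904 others. All 5 were higher in at least 7 of 8 samples. The abundant genes that fell most included genes of cells that are not β-cells. Ghrl had 0 UMIs in mitotic-rich cells and 4598 in 11 others, of which 4588 lay in 1 cell, so that no fold is given. Col3a1 and Sparc, genes of matrix-forming cells, had 0 UMIs against 186 in 7 cells and 156 in 16 cells, where 1 cell held 81 and 52 of these UMIs, and no fold is given for them either. Apoe had 4 UMIs against 424 in 35 cells, and Iffo1 1 UMI against 160 in 134 cells. These 5 calls were lost in DESeq2, which fitted a fold of the other sign for Ghrl and Col3a1. In edgeR the calls of Col3a1 and Sparc were lost without PPTx replicate 2 and that of Apoe without PPTx replicate 1.

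The insulin RNA of mitotic-rich cells was slightly lower. Ins1 and Ins2 made up 36.2, 51.3, 60.6 and 55.2% of UMIs in mitotic-rich cells of control replicates 1 to 4, against 58.4, 61.1, 62.5 and 59.3% in the other insulin-dominant cells. In PPTx the values were 57.5, 43.9, 58.5 and 56.4% against 56.7, 51.3, 56.1 and 59.7%. The share was lower in 6 of 8 samples and higher in PPTx replicates 1 and 3. The mean difference was -5.71 ± 7.78 percentage points (SD, n = 8, exact sign-flip permutation p = 0.0469, two-sided, where 0.00781 is the smallest p that 8 samples allow). Without control replicate 1, which had 1 mitotic-rich cell, the difference was -3.35 percentage points (exact p = 0.0938), and leaving out any other sample except PPTx replicates 1 and 3 also brought the exact p to between 0.0625 and 0.0938.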

How the data were processed

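The authors isolated islet cells in droplets, aligned reads to mm10, counted UMIs with Cell Ranger and deposited raw UMI counts per gene and cell, 1 table a sample, without normalization. The methods name the ddSEQ system for the libraries and the labels a Chromium kit. The study's own limits on a cell (from 100 to 3000 genes, 100 to 20000 UMIs) were applied, which left out 8 of 1240 cells and kept 520 control and 712 PPTx cells. No doublet caller was run.

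The 40 genes and the gene lists were chosen with earlier results of these data known. UMI counts were summed per sample and class, genes with at least 10 UMIs in the sums were tested with edgeR 4.0.16 (quasi-likelihood, TMM factors from genes kept by filterByExpr, adjusted p under 0.05, Benjamini-Hochberg) in R 4.3.3, and DESeq2 1.42.0 was an alternative. The fits were checked on simulated counts, after which TMM factors were taken from filterByExpr's genes and not from all tested genes. CPM is per 1000000 UMIs of the class and sample. Thinned shares are exact expectations at 2000 UMIs a cell. P-values measure the spread between samples, and it is not stated here whether samples shared mice. All 40 genes are accounted for. Values are given for the 10 with most UMIs, those called, and those with at least 3 UMIs in other hormone cells; genes of the other lists are those called (at most 6 a list, largest change first), and genes outside the 40 in mitotic-rich cells are up to 5 each way with the largest change and a mean log2 CPM of at least 5. Genes named beyond this rule (such as Tubb5) were chosen after their values were seen. Alternatives were other scalings, filters, thresholds, classes and leaving out samples. Python 3.11.15 and scipy 1.17.1 were used.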

Additional observations from a re-analysis of the deposited data

Results flagged for a closer look

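In each of 54 groups of 4 samples the sample farthest from the others was examined with Dixon's ratio at its 95% level, and 8 groups passed. In 3 of them, all shares of mitotic-rich cells, the other samples of the group were at 0, where any lone sample above 0 passes, so that these are given as values only. For groups without such ties chance passes about 1 in 20. Among control samples, replicate 2 stood far above the others in the summed level of other hormone cells (533 CPM) and of Ppy-dominant cells (928 CPM) and in the share of mitotic-rich Ppy-dominant cells (11.1%, 1 of 9 cells), and all 3 rest on the same Ppy-dominant cell. Control replicate 3 was the lone control with a mitotic-rich Gcg-dominant cell (1.89%). PPTx replicate 2 stood far above the other PPTx samples in the summed level of Gcg-dominant cells (451 CPM) and in their share of mitotic-rich cells (22.2%, 2 of 9 cells). In insulin-dominant cells, Racgap1 was far lower in PPTx replicate 1 (5.05 CPM) than in the other PPTx samples, and Cdca3 had 0 CPM in control replicate 1, where the other controls were alike.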

How the results depend on the processing

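Among the alternatives run, 0 of the 40 genes were called between PPTx and control in insulin-dominant, all or other hormone cells. Whether replicate numbers pair the samples was not settled. The deviations of same-numbered samples correlated at r = 0.06, 0.03, 0.06 and 0.19 across 4916 genes. Those of differently numbered samples correlated at r = -0.118 to 0.0954. With the replicate block 0 of the 40 genes were called in each of the 3 comparisons. In all, 20, 30 and 1 genes were called with it, against 17, 37 and 15 without. The medians of the 40 genes that were tested were 0.45 in insulin-dominant and 0.21 in all cells, against 0.50 and 0.36. Tubb5 was no longer called with the block (edgeR log2 fold change 0.88, adjusted p = 0.0654). Calls over all genes in insulin-dominant cells ran from 1 (without PPTx replicate 1) to 32 (no filter). Without normalization factors the median of all genes moved from 0.01 to 0.14 there, and from 0.05 to -0.24 between insulin-dominant and other hormone cells.

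Between insulin-dominant and other hormone cells, 2 of the 40 genes were called. This count was 0 with DESeq2, without normalization factors and with filterByExpr, which left 2 of the genes tested, 1 with a leading hormone at least 2 times the next, and 0 to 7 when 1 sample was left out. The cause was not tested. Without the 2 richest cells of other hormones, an alternative added after seeing the data, it was 10 (of 2000 genes called among 11177), and the median of the genes 2.35. Those cells were picked for their UMIs of the 40 genes, which fixes the direction of this shift. Pbk was called under 8 of 15 alternatives (adjusted p from 5.65e-06 to 0.128) and Cenpm under 7 of 15 (0.000654 to 0.156). The 316 other genes called in mitotic-rich cells became 782 with TMM factors from all tested genes, where 193 were higher and 589 lower in place of 222 and 94, and 221 to 385 when 1 sample was left out.

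The difference in summed level was 60.6 CPM (149 in control and 210 in PPTx), and 119 on totals without hormones, where every level is higher (433 and 551), so that the difference was smaller relative to the level. The difference in the share of mitotic-rich cells (5.04 percentage points) was 2.22 after thinning, 1.97 at 10 UMIs and -0.33 at 20 UMIs, the last 2 added after seeing the data. The insulin share (-5.71 percentage points) was -3.49 at 2 UMIs (exact p = 0.0859) and -6.87 to -3.35 when 1 sample was left out (exact p = 0.0312 to 0.0938).

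Small log2 fold changes between PPTx and control in insulin-dominant cells changed sign when 1 sample was left out, where Top2a ran from -0.053 to 0.64, Cdk1 from -0.39 to 0.19, Ube2c from -0.61 to 0.13 and Cdca3 from -0.12 to 0.17. Cdk1 was at 0.012 without normalization factors. For Ghrl and Col3a1, with 0 UMIs in mitotic-rich cells, the fitted value depends on the tool (2.48 and 1.39 in DESeq2, where neither passed, and negative in edgeR), so that no size of change is read from it. The counts limit these results, as 8 of the 40 genes had over 50 UMIs over all cells, insulin-dominant sums of single samples held 40 to 324 UMIs of the 40 genes, and other hormone cells gave 1 gene with enough UMIs for a test of PPTx.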
